A study of Mus musculus with 6 samples.

Results

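Integrins are the receptors by which a muscle fibre holds on to its basement membrane. The genes described here encode these receptors, the laminins and other matrix proteins that they bind, and the proteins of the focal adhesion, the assembly that links an integrin to actin and to kinases inside the cell. The members were 36 symbols from a written list, and every row of the deposited table with 1 of these symbols was taken. Of the 36 listed, 35 were found among the 13226 genes of the table, and Ilk, which encodes integrin-linked kinase, was not analysed here. All 35 were tested.

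The table comes from whole tibialis anterior (TA) muscles of male C57BL/6 mice, injected at 8 weeks of age and taken 7 days later. The 3 muscles of the first group received AAV6:Yap-shRNA, an adeno-associated viral vector that carries a short hairpin RNA against the transcriptional co-activator Yap. The 3 control muscles are titled empty vector, but their vector field and the description of the series name AAV6:LacZ-shRNA, so they are called control here. Control and treated muscles came from opposite legs of 3 animals, and no label says which muscles shared an animal, so the comparison was made between groups and its p-values measure only the spread between these 6 muscles. All muscles of both groups shared the AAV6 capsid and the injection. The Yap-shRNA was built into a plasmid with an eGFP cassette driven by the CMV promoter, which is not restricted to muscle fibres.

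An integrin is a pair of an alpha and a beta chain, and the pair sets what it binds. In skeletal muscle fibres the α7β1 pair, from Itga7 and Itgb1, binds laminin in the basement membrane, and talins, kindlins and vinculin couple its inner side to actin. Yap shuttles between cytoplasm and nucleus, responds to such attachment, and acts on DNA through TEAD factors, and genes of matrix and adhesion are among its known targets in other cells.

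Because Yap acts through TEAD factors, the promoters of the members were searched for the TEAD core motif GGAATG, read on both strands, so that CATTCC was also counted. The RefSeq promoters of build GRCm38.p6, from 250 bases before to 50 bases after each gene start, held 29 promoters for 24 of the 35 members. Of these 29 promoters, 4 (13.8%) contained the motif, against 14.7% of all 32851 promoters. The 4 stretches are shown because they are the places in these windows where the motif letters occur. All are printed as the plus strand, on which the 4 genes lie, and each is 30 bases long with the motif in capitals.
Itga10, chr3:96645497-96645526: caccaccactccCATTCCatccaactttat
Itgb1, chr8:128685624-128685653: aggcgcggctgacgcggcgcggaGGAATGc
Nid1, chr13:13437425-13437454: cgggttggatccGGAATGctgggaaccaac
Vcl, chr14:20929243-20929272: gcccctcccttgGGAATGggggcggggcgg
The motif began 75 bases before the gene start in Itga10, 7 in Itgb1, 165 in Nid1 and 143 in Vcl. A match is a description of the letters and not of binding. The log2 fold changes of these 4 genes are given with their roles below.

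The 6 libraries held between 11987167 and 12710393 counts, and values are given as CPM, counts scaled to the library's size after TMM correction, with the SD over 3 muscles. Yap1 checks the labels. It stood at 68.3 ± 2.96 CPM in control muscles (n = 3) and at 31.8 ± 7.80 CPM in Yap-shRNA muscles (n = 3), or 46.5% of control, and its groups did not overlap. In edgeR, the quasi-likelihood adjusted p over all genes was 0.436. All 6 myofibre markers were present in every muscle and summed to between 107100 and 128700 CPM.

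No member of the adhesion genes passed the test across all genes between Yap-shRNA and control muscles. In edgeR's quasi-likelihood test, 0 of the 35 members passed an adjusted p of 0.05, where 0% of the 13226 genes did, and 0 members passed an unadjusted p of 0.05, where 1.75% of all genes did. The groups overlapped for every member, whereas 5.27% of all genes had groups that did not overlap. With DESeq2 0 members passed after adjustment, where 0.0378% of genes did, and 1 member (Itgb1bp2) passed the unadjusted threshold, where 1.02% did. With edgeR's likelihood ratio test the counts of members were the same, beside 0.0378% of genes after adjustment and 1.53% before. The members' log2 fold changes (Yap-shRNA minus control) ran from -0.58 in Itga10 to 0.22 in Itga11, with a median of 0.039 beside -0.0029 over all genes. Of the 35, 26 (74.3%) had a value above 0, where 48.9% of all genes did, but this count fell to 15 without control 2 and to 16 without control 3 or without Yap-shRNA 3. The median of the members was then below 0, at -0.02 without control 2, -0.0080 without control 3 and -0.01 without Yap-shRNA 3.

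The spread between muscles set how large a difference could have been missed. For 29 of the 35 members (82.9%) the 95% interval of the difference lay within 1.5-fold in either direction. This was so for 63.3% of all genes. For 34 members the interval lay within 2-fold, where this was so for 11495 of the 13226 genes. The member outside 2-fold was Itga10. In absolute size, 20 members were below 0.1 on the log2 scale and 3 above 0.2. Over all 13226 genes, 7107 were below 0.1 and 2833 above 0.2. The median standard error was 0.14 over the members and 0.16 over all genes. The RNA came from whole muscle, so fewer cells of a type and less RNA per cell cannot be told apart.

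**Figure D1:**
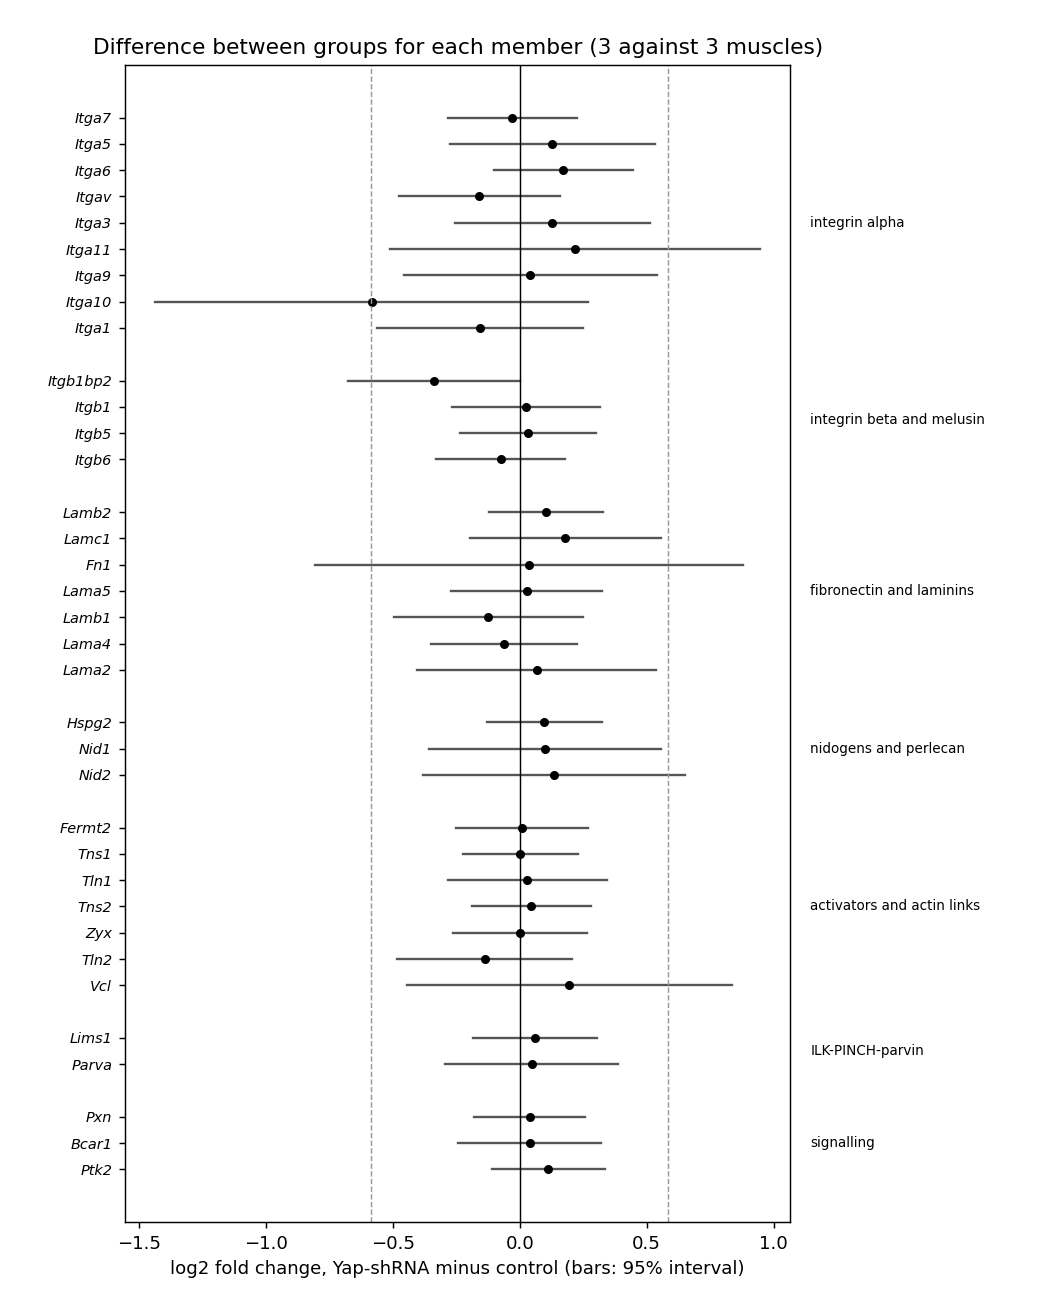
Log2 fold change of each of the 35 members, Yap-shRNA minus control (3 against 3 muscles), grouped by role, with the 95% interval of edgeR's quasi-likelihood fit as a bar. Dashed lines mark 1.5-fold, every interval includes 0, and that of Itga10 is the widest.

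Among the integrin alpha chains, Itga7 was by far the most abundant once its length was taken into account. On the scale of CPM per kilobase of exon, it stood at 15.2 ± 1.62 in control muscles, between 13.6 and 16.9, above the range of every other alpha chain. The next in order, Itga5 (3.67 ± 0.716, a fibronectin receptor chain) and Itga6 (3.25 ± 0.488, a laminin receptor chain), overlapped. Itgav (2.40), Itga3 (1.07), Itga11 (0.883), Itga9 (0.664), Itga10 (0.425) and Itga1 (0.317) followed. From Itga3 to Itga1 the ranges of each chain and the next overlapped. The control value of Itga7 was 4.70 ± 0.241 times that of Itga6, and in Yap-shRNA muscles the ratio was 4.07 ± 0.431, with overlap.

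**Figure D2:**
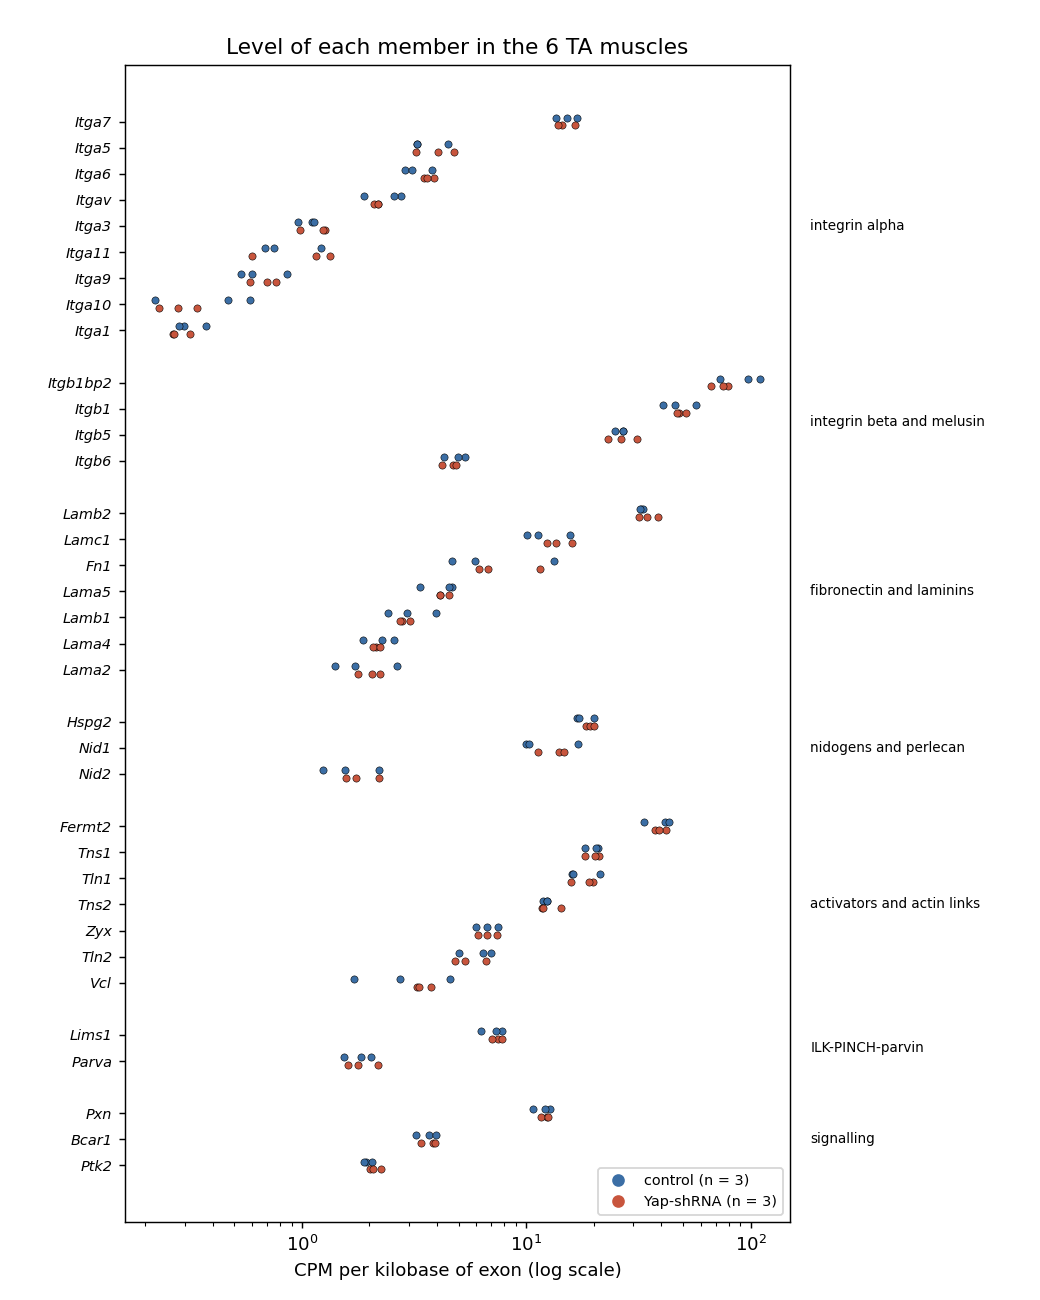
Level of each of the 35 members in each of the 6 TA muscles, as CPM per kilobase of exon on a log axis, ordered by role and by level. Blue points are control and red points Yap-shRNA muscles (n = 3 each), and the points of both groups overlap in every member.

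Itga7 (ENSMUSG00000025348, chr10:128933818-128958282, plus strand) was counted at 137, 110.4 and 122.5 CPM in control muscles and at 116.5, 112 and 133 CPM in Yap-shRNA muscles. Its highest and its lowest value were both in control muscles. The log2 fold change was -0.03, with a 95% interval of -0.28 to 0.22, or from 0.821 to 1.17 times the control level.

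Itga6 (ENSMUSG00000027111, chr2:71745616-71858416, plus strand) stood at 34.3, 25.9 and 27.8 CPM in control muscles and at 35.2, 31.5 and 32.7 CPM in Yap-shRNA muscles. Control 1 lay among the Yap-shRNA muscles, and the other control muscles lay below them. The log2 fold change of Itga6 was 0.17 (interval -0.10 to 0.45).

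Itga10 and Itga11 encode collagen receptor chains, better known from cartilage and from fibroblasts than from fibres. Itga10 (ENSMUSG00000090210, chr3:96645584-96664519, plus strand) had the lowest counts of the members, with 39, 29 and 14 reads in the controls against 21, 19 and 15 in the Yap-shRNA group, or 3.04, 2.42 and 1.15 against 1.76, 1.46 and 1.20 CPM. Both its highest and its lowest muscle were controls, and the log2 fold change of -0.58 had an interval of -1.44 to 0.27. Of its exon bases 33.5% are shared with Gm42957 on the same strand, so reads of these genes cannot be told apart there.

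Itga11 (ENSMUSG00000032243, chr9:62677826-62783982, plus strand) stood at 6.23, 3.51 and 3.86 CPM in control muscles and at 5.96, 3.07 and 6.86 CPM in Yap-shRNA muscles. Its lowest and highest muscles were both of the Yap-shRNA group, and the log2 fold change was 0.22 (interval -0.51 to 0.95). The remaining alpha chains had log2 fold changes of -0.16 in Itga1, a collagen receptor chain, 0.13 in Itga3, a laminin receptor chain, 0.13 in Itga5, 0.04 in Itga9, which binds tenascin, and -0.16 in Itgav, which pairs with β5 and β6. The median of all 9 alpha chains was 0.04.

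The beta chains and melusin held the member with the smallest p-value. Itgb1bp2 (ENSMUSG00000031312, chrX:101449088-101453541, plus strand) encodes melusin, a protein of striated muscle that binds the inner tail of integrin β1. It was also the most abundant member per length, at 93.5 ± 19.0 CPM per kilobase of exon in control muscles, above the range of Itgb1.

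Melusin stood at 131, 198.5 and 175 CPM in control muscles and at 120.2, 143 and 136 CPM in Yap-shRNA muscles. Control 2 and control 3 were above all Yap-shRNA muscles, but control 1 was below Yap-shRNA 2 and Yap-shRNA 3. The group means were 168 ± 34.2 CPM and 133 ± 11.6 CPM, so that Yap-shRNA muscles held 79.1% of the control level, and the log2 fold change was -0.34 (interval -0.68 to 0.0017). The quasi-likelihood test of edgeR gave p = 0.0509 before and p = 1.00 after Benjamini-Hochberg adjustment, and a two-sided exact permutation test gave p = 0.30, where 0.10 is the smallest that 3 against 3 muscles allow. Itgb1bp2 passed the unadjusted threshold under DESeq2, under edgeR's likelihood ratio test, with upper-quartile scaling (where 1.70% of all genes passed) and among genes with at least 10 counts in every muscle (where 1.46% passed), with an adjusted p of 1.00 in each.

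Itgb1 (ENSMUSG00000025809, chr8:128685654-128733200, plus strand), the common beta chain, was the second in level per length, at 48.1 ± 8.48 CPM per kilobase of exon in control muscles. It stood at 234, 166 and 188 CPM in control muscles and at 197, 191.5 and 211 CPM in Yap-shRNA muscles, and the Yap-shRNA muscles lay inside the control range. Its log2 fold change was 0.03 (interval -0.27 to 0.32). Per kilobase, Itgb1 was 3.14 ± 0.222 times the level of Itga7 in control and 3.29 ± 0.132 times in the Yap-shRNA group, a ratio chosen after the values were seen. Itgb5 and Itgb6, which pair with αv, had log2 fold changes of 0.03 and -0.08.

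Among fibronectin and the laminins, the β2 chain led in level and Lamc1 had the largest difference. Lamb2 (ENSMUSG00000052911, chr9:108479736-108490530, plus strand), which encodes laminin β2, a chain found at the neuromuscular junction, stood at 197, 202 and 195.5 CPM in control muscles and at 193, 211 and 235 CPM in Yap-shRNA muscles. The controls differed little and lay within the Yap-shRNA range, and the log2 fold change was 0.10 (interval -0.12 to 0.33). Per kilobase of exon Lamb2 was 10.9 ± 2.56 times the level of Lamb1 in control and 12.3 ± 1.80 times in Yap-shRNA muscles.

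Lamc1 (ENSMUSG00000026478, chr1:153218922-153332786, minus strand) encodes laminin γ1, the chain shared by most laminins. It stood at 129, 83.2 and 93.7 CPM in control muscles and at 112, 102 and 132.5 CPM in Yap-shRNA muscles. Control 1 was close to Yap-shRNA 3, and the other control muscles lay below all of the Yap-shRNA group. For Lamc1 the log2 fold change was 0.18 (interval -0.20 to 0.56).

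Fn1 (ENSMUSG00000026193, chr1:71585520-71653200, minus strand) encodes fibronectin, a matrix protein made largely by fibroblasts in muscle, and it was the most uneven of the matrix members among the muscles. It stood at 155, 68.7 and 54.4 CPM in control muscles and at 78.8, 72.0 and 135 CPM in Yap-shRNA muscles. The ratio of the highest to the lowest muscle was 2.86, where the median over all members was 1.40 and over all genes 1.43. Its log2 fold change of 0.04 had an interval of -0.81 to 0.88. Fn1 was singled out after its values were seen.

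The other laminin chains had log2 fold changes of 0.07 in Lama2, the α2 chain of the fibre's own basement membrane, -0.06 in Lama4 and 0.03 in Lama5, which are α chains of vessel walls among other places, and -0.12 in Lamb1. The median over fibronectin and the 6 laminin chains was 0.04.

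The nidogens and perlecan join laminin to the rest of the basement membrane, and all 3 had values above 0 that the test did not pass. Hspg2 (ENSMUSG00000028763, chr4:137468769-137570630, plus strand), which encodes perlecan, was the most abundant of them per length. It stood at 286, 240.5 and 245 CPM in control muscles and at 264, 275 and 286 CPM in Yap-shRNA muscles, and its log2 fold change was 0.10 (interval -0.13 to 0.32). Control 1 and Yap-shRNA 3 were nearly equal. Nid1 and Nid2 had log2 fold changes of 0.10 (interval -0.36 to 0.56) and 0.14 (interval -0.38 to 0.65), and Nid1 stood at 118, 69.2 and 71.7 CPM in control and at 96.9, 78.5 and 103 CPM in Yap-shRNA muscles. Per kilobase, Nid1 was 7.46 ± 0.718 times the level of Nid2 in control and 7.31 ± 0.679 times in the Yap-shRNA group.

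The activators and actin links had the role median nearest to 0, a log2 fold change of 0.0094 over 7 members. Fermt2 (ENSMUSG00000037712, chr14:45458795-45530118, minus strand) encodes kindlin-2, which activates integrins together with talin. It stood at 215, 173 and 224 CPM in control muscles and at 217, 195 and 204 CPM in Yap-shRNA muscles, all of the latter inside the control range. Its log2 fold change was 0.0094 (interval -0.25 to 0.27).

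Vcl (ENSMUSG00000021823, chr14:20929398-21033676, plus strand) encodes vinculin, which strengthens the link from talin to actin. It stood at 37.5, 14.0 and 22.3 CPM in control muscles and at 26.7, 27.3 and 30.7 CPM in Yap-shRNA muscles. The control muscles were widely spread on either side of the tightly grouped Yap-shRNA muscles, and the log2 fold change was 0.20 (interval -0.44 to 0.84). Of its exon bases 25.5% are shared with Ap3m1 on the opposite strand, and the strand setting of the counting is not given in the sources used here.

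Talin 1 (Tln1) had a log2 fold change of 0.03 and talin 2 (Tln2), which is enriched in mature striated muscle, -0.14. Per kilobase of exon Tln1 was 3.03 ± 1.08 times the level of Tln2 in control and 3.33 ± 0.693 times in Yap-shRNA muscles. The annotated exons span 9.8 kb in Tln1 and 18.4 kb in Tln2, and the control means in CPM alone were 175 and 113. Tns1 and Tns2, which encode tensins, had 0.0018 and 0.05, and Zyx, which encodes the actin regulator zyxin, had 0.0017.

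The ILK-PINCH-parvin complex was represented by Lims1 and Parva. Lims1 (ENSMUSG00000019920, chr10:58323466-58424691, plus strand), which encodes PINCH1, stood at 38.1, 30.6 and 35.9 CPM in control muscles and at 36.5, 34.5 and 38.1 CPM in Yap-shRNA muscles. The difference on the log2 scale was 0.06 (interval -0.18 to 0.30), and Parva, which encodes α-parvin, had 0.05.

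Paxillin, focal adhesion kinase and p130Cas pass signals on from the adhesion, and all 3 signalling members had narrow intervals. Pxn (ENSMUSG00000029528, chr5:115506676-115555987, plus strand), which encodes the scaffold paxillin, stood at 104, 88.2 and 99.5 CPM in control muscles and at 102, 95.6 and 103 CPM in Yap-shRNA muscles. Its log2 fold change was 0.04 (interval -0.18 to 0.26). Ptk2, which encodes focal adhesion kinase, had 0.11 (interval -0.11 to 0.34) and Bcar1, which encodes its substrate p130Cas, had 0.04.

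Beyond the members, 72 of 78 other genes of integrins, matrix and adhesion were in the table, from a list of which 1 further gene is left out of all these counts. They had a median log2 fold change of 0.04, with 47 above 0 and 25 below. Among these 72, 0 passed after adjustment and 0 passed an unadjusted p of 0.05 in edgeR's quasi-likelihood test, where 1.75% of all genes passed the latter. The groups did not overlap for 3 of them, where this was so for 5.27% of all genes. Git1 and Arhgef7, which encode partners in a complex that binds paxillin, had log2 fold changes of 0.15 (interval -0.06 to 0.35) and 0.12 (interval -0.08 to 0.31), and Vtn, which encodes the integrin ligand vitronectin, had -0.22 (interval -0.49 to 0.04). Vtn stood at 39.2, 37.3 and 49.1 CPM in control muscles against 35.2, 35.4 and 37.1 CPM in the Yap-shRNA group. Its highest value was in control 3, the muscle with by far the highest sum of hepatocyte markers (328 CPM, described below). The part of such liver RNA in the Vtn values was not tested. Git1, Arhgef7 and Vtn were named after their values were seen.

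The members' highest and lowest values were often in the same muscles. Control 1 was the highest of the 6 muscles for 16 of the 35 members (45.7%), where it was highest for 22.1% of all genes. It was lowest for 1 member, where it was lowest for 22.3% of all genes. Yap-shRNA 3 was highest for 8 members (22.9%, and 15.4% of all genes) and lowest for 0 (14% of all genes). Together these muscles were highest for 24 members (68.6%, and 37.4% of all genes), and control 2 or control 3 was lowest for 24 members (68.6%, and 38.1% of all genes).

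The nidogens and perlecan had the largest median deviations of the roles in control 1, control 2 and Yap-shRNA 3. As deviations from the mean over the 6 muscles on the log2 CPM scale, the median of the nidogens and perlecan was 0.36 in control 1, -0.34 in control 2 and 0.22 in Yap-shRNA 3, and that of fibronectin and the laminins was 0.27, -0.16 and 0.20. The median of the 3 signalling members stayed between -0.08 and 0.10 in every muscle. Melusin went the other way in control 1, where it had its lowest control value, and so did Itgb6, Tln1, Tns2 and Bcar1. In Yap-shRNA 3, melusin (-0.12) and Tns2 (-0.06) were below the mean over the 6 muscles. Itgb6 (0.05), Tln1 (0.08) and Bcar1 (0.10) were above it there.

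Fibroblast, tendon and regenerating fibre markers were highest in the same muscles, control 1 and Yap-shRNA 3. The summed CPM of 6 fibro-adipogenic and fibroblast markers was 2018 in control 1 and 2304 in Yap-shRNA 3, and between 1054 and 1255 in the remaining muscles. The collagen genes Col1a1 and Col3a1 made up most of this sum, at 673 and 790.4 CPM in control 1. Of the 6 markers, Ly6a did not follow this order and stood at 61.3, 63.0 and 52.4 CPM in control muscles against 68.3, 67.7 and 76.8 CPM in the Yap-shRNA group, without overlap. The 4 tendon markers found of 5 listed summed to 620.5 and 510 CPM in these muscles and to between 124 and 171.5 in the others, and the 3 markers of regenerating fibres to 43.1 and 36.1 against 7.37 to 15.8. Endothelial markers were even in sum, at 319.5 to 381 CPM in control and 335 to 361 CPM in Yap-shRNA muscles. Smooth muscle and pericyte markers summed to 606 to 699 and 549 to 629, and Rgs5 made up most of this sum. Acta2 and Myh11 were less even, at 37.3 to 105 and 23.2 to 50.25 CPM over the 6 muscles, and both were highest in control 2.

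Macrophage markers summed to 165 CPM in control 1, 91.6 in control 2 and 63.3 in control 3, and to between 112 and 145 in Yap-shRNA muscles. Control 1 thus had the highest sum and the other controls the lowest. Lyz2 made up most of the sum, at 101.7 CPM in control 1. Cd68 and Mrc1 were highest in Yap-shRNA 2, and Cd14 was highest in Yap-shRNA 3 and lowest in Yap-shRNA 2. Without control 1, the macrophage sums of the groups did not overlap, where 23.8% of all genes had groups without overlap. Among the macrophage markers Cd14 still overlapped. The fibroblast sums were apart only narrowly (at most 1249 in control and at least 1252 in Yap-shRNA muscles). Of the fibroblast markers only Ly6a had groups without overlap, while Pdgfra, Dcn, Lum, Col1a1 and Col3a1 overlapped. Schwann cell markers ran from 37.3 to 73.9 and from 46.4 to 64.2, and 2 of 3 satellite cell markers from 4.43 to 6.65 and from 5.29 to 5.50. Fat and liver markers were each high in a single muscle. Adipocyte markers lay between 4.85 and 10.7 in 5 muscles and at 35.7 in Yap-shRNA 3. Hepatocyte markers, which a leg muscle should lack, reached 328 CPM in control 3 and lay between 0.319 and 36.5 elsewhere, and none of the 3 neutrophil markers was in the table. The part of any of these in the members' values was not tested.

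**Figure D3:**
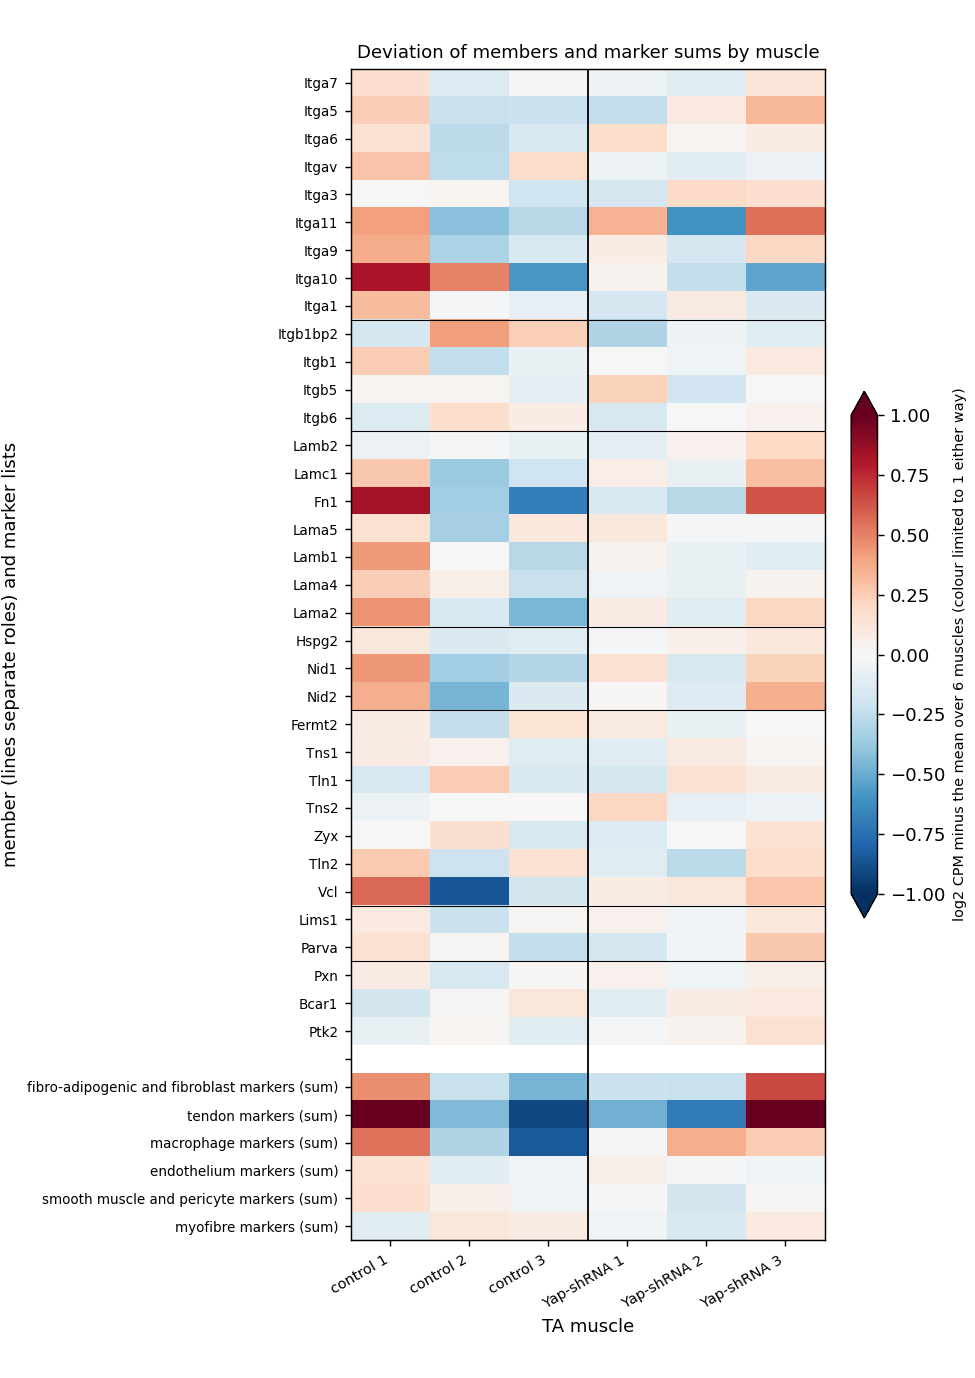
Deviation of log2 CPM from the mean over the 6 TA muscles for each member (upper block, lines separate the roles) and for the summed markers of 6 cell types (lower block), red above and blue below the mean, with colours limited to 1 either way. Control 1 and Yap-shRNA 3 are red for most matrix genes and for the fibroblast and tendon sums.

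Leaving out control 1 raised the number of genes that stood apart between the groups, among the members and over the whole table. With all muscles kept, 1.75% of all genes passed an unadjusted p of 0.05 in edgeR's quasi-likelihood test. The groups did not overlap for 5.27% of all genes. Without control 1, 7 members passed this unadjusted threshold, where 7.24% of all genes did, and 0 members passed after Benjamini-Hochberg adjustment. Whether the members rose more than all genes was not tested. Of the 7, Itga6, Vcl and the matrix genes Fn1, Lama2, Lamc1 and Nid1 were higher in Yap-shRNA muscles and Itgb1bp2 was lower. The groups did not overlap for 11 of the 35 members, where this was so for 23.8% of all genes. These were Itga6, Itgb1, Fn1, Lama2, Lamc1, Nid1, Nid2, Hspg2 and Vcl, all higher in Yap-shRNA muscles, and Itgb6 and Itgb1bp2, both lower.

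Without control 1 the log2 fold change was 0.64 in Vcl, 0.63 in Fn1, 0.39 in Nid1 and Lamc1, 0.37 in Lama2 and 0.30 in Itga6. Melusin moved to -0.49, for which edgeR's quasi-likelihood fit gave an unadjusted p of 0.00154 and an adjusted p of 0.520. The median over the members was 0.099 without control 1, against 0.039 over all 6 muscles and values below 0 in 3 of the other fits that left out 1 muscle. The unadjusted threshold was passed by 1 member without control 2 (Itgav, where 2.37% of all genes passed) and by 1 without control 3 (Itga10, where 0.975% passed). It was passed by 0 members without Yap-shRNA 1, 2 or 3, where 1.49%, 1.69% and 1.40% of all genes passed.

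When control 1 and Yap-shRNA 3 were both left out, a choice made after the data were seen, 5 members passed the unadjusted threshold (Itga6, Lamc1, Nid1 and Vcl higher, Itgb1bp2 lower), where 5.56% of all genes did. The same 11 of the 35 members had groups that did not overlap, a smaller share than the 35.0% of all genes with 2 muscles a group. None passed after adjustment by edgeR's quasi-likelihood test. Melusin was lower in Yap-shRNA muscles in each of these sets of muscles, with log2 fold changes between -0.49 and -0.20 when single muscles were left out and -0.50 without both. These sets share muscles, so the constant sign is not separate support. When a single muscle other than control 1 was left out, melusin's unadjusted p in edgeR's quasi-likelihood test lay between 0.059 and 0.193.

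**Figure D4:**
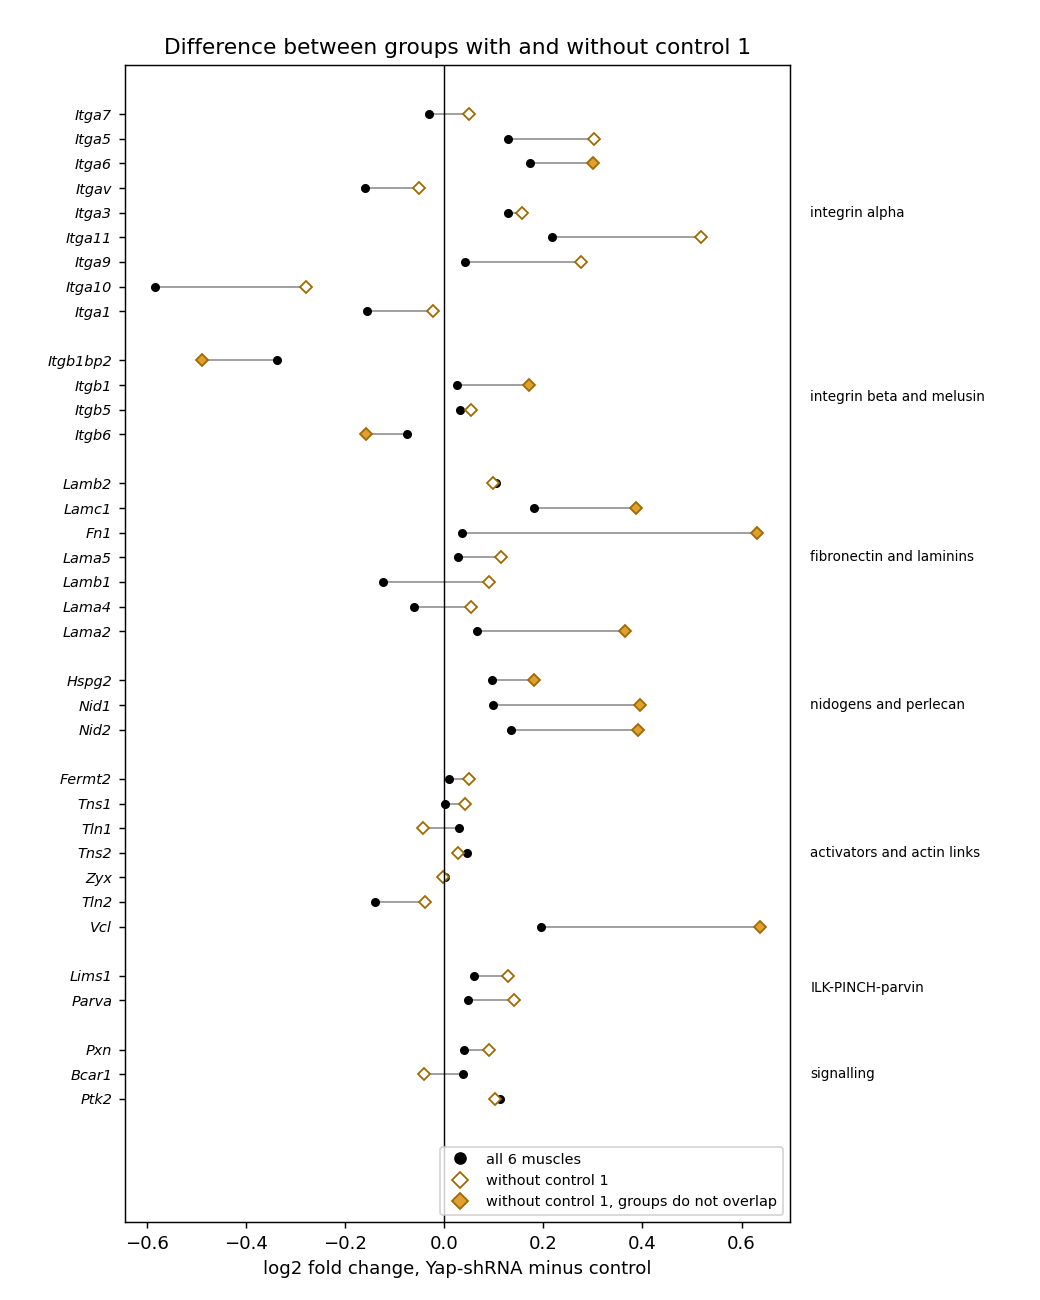
Log2 fold change of each member, Yap-shRNA minus control, over all 6 TA muscles (black) and without control 1 (diamonds, filled where the groups of 2 and 3 muscles do not overlap). Of the 35 members, 11 have filled diamonds, where 23.8% of all genes had groups without overlap, and Fn1 and Vcl move farthest.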

How the data were processed

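Polyadenylated RNA of 6 whole TA muscles was sequenced. The authors deposited raw counts per gene without normalisation. Per the labels, the submitters' processing notes name build GRCm38 and bcl2fastq 2.20.0.422, and the aligner, counter and strand setting are not given in the sources used here. The 13226 genes had totals of 60 or more over the 6 libraries, so the table was already filtered, and a minimum of 10 counts on average removed none. Within groups, libraries differed by chi-square values of 7.62 to 21.4 per degree of freedom, and each was counted as a separate sample. All 6 columns were matched by name.

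Counts were scaled by TMM (factors 0.969 to 1.05) and tested with edgeR 4.0.16 in R 4.3.3 (quasi-likelihood test, two-sided, group only, Benjamini-Hochberg over all genes, threshold 0.05), which was first tested on simulated counts. The biological coefficient of variation was 15.7%. Standard errors were the log2 fold change over the square root of F, and intervals (95%) used the t distribution. Exon lengths and positions came from GENCODE M21 on GRCm38. The length of a gene was the union of all its annotated exons, whether or not muscle uses them. Alternatives were DESeq2 1.42.0, the likelihood ratio test, upper-quartile scaling, other count filters, a replicate block and leaving out muscles.

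The members, gene lists and tests were chosen with earlier results of these data known. Members were given in full where they passed an unadjusted p of 0.05, had groups that did not overlap, were among the 6 largest differences or were the most abundant of their role per kilobase. Fn1, Itgb1 and Nid1 were added after their values were seen. None of the ratios between members was among the planned results, and they are descriptions only. From the list of other adhesion genes, 1 gene is not reported here.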

Additional observations from a re-analysis of the deposited data

How the results depend on the processing

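With the likelihood ratio test and with DESeq2, 5 genes of the table passed after adjustment instead of 0, none of them a member. The number of members at an unadjusted p under 0.05 was 1 instead of 0 (Itgb1bp2) under the likelihood ratio test, DESeq2, upper-quartile scaling, at least 10 counts in every muscle, and the replicate block. In the fit with the replicate number as a block the log2 fold change of Itgb1bp2 was -0.32 (unadjusted p = 0.0163, adjusted p = 1.00, edgeR), 0 genes passed, and the members' median was 0.041. Muscles of the same number did not deviate together (correlations of deviations -0.04, 0.21 and -0.25), and only those numbered 2 matched best with their own number. Yap1 passed under the likelihood ratio test (adjusted p = 2.22e-06) and DESeq2 (adjusted p = 5.85e-07). Under these settings and without a filter, all 35 members kept the sign of their log2 fold change, and the members' median lay between 0.039 and 0.043.

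Leaving out single muscles gave 0 to 1 genes passing after adjustment, 0 to 7 members at an unadjusted p under 0.05 (0.975% to 7.24% of all genes), and 0 to 11 members without overlap (10.5% to 23.8% of all genes). The members' median ran from -0.02 to 0.10. The log2 fold change changed sign in at least 1 of these 6 fits for 23 members, which ranged from -0.040 to 0.11 in Bcar1, -0.096 to 0.081 in Fermt2, -0.30 to 0.63 in Fn1, -0.014 to 0.52 in Itga11, -0.016 to 0.30 in Itga5, -0.11 to 0.051 in Itga7, -0.092 to 0.28 in Itga9, -0.080 to 0.17 in Itgb1, -0.082 to 0.13 in Itgb5, -0.12 to 0.37 in Lama2, -0.18 to 0.055 in Lama4, -0.11 to 0.12 in Lama5, -0.27 to 0.091 in Lamb1, -0.024 to 0.13 in Lims1, -0.038 to 0.39 in Nid1, -0.037 to 0.39 in Nid2, -0.085 to 0.14 in Parva, -0.026 to 0.091 in Pxn, -0.041 to 0.18 in Tln1, -0.057 to 0.057 in Tns1, -0.052 to 0.099 in Tns2, -0.085 to 0.64 in Vcl and -0.074 to 0.086 in Zyx. Without both control 1 and Yap-shRNA 3, 3 genes, 5 members and 11 members stood for the same counts, and the sign changed in Itga1 (0.014, beside -0.24 to -0.023 with single muscles left out), Lama4 (0.025), Lamb1 (0.12), Tln1 (-0.071), Zyx (-0.077) and Bcar1 (-0.077). The cause was not tested. The lowest counts among the members were those of Itga10 (14 to 39 a muscle).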
